A study of Mus musculus with 4 samples.

Results

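Aggrecan, hyaluronan link protein 1, versican and 6 small leucine-rich proteoglycans were followed in Prss56-lineage cells of the mouse spine. The 9 genes were taken by symbol from the 32286 rows of the count tables, not by a cutoff on their values, but with earlier results of these data known. They are Acan, Hapln1, Vcan, Bgn (biglycan), Dcn (decorin), Fmod (fibromodulin), Prelp, Lum (lumican) and Epyc (epiphycan). The data are 4 droplet single-cell 3′ RNA-seq libraries of tdTomato-positive cells sorted from the T11 to L2 vertebrae of male and female mice, with CD45-, CD11b- and CD31-positive and dead cells discarded. The control libraries, from mice aged 3 months and 12-16 months, carried Prss56 Cre/+; R26 tdTom/tdTom; Nf1 +/+, and the mutant libraries of the same ages carried Prss56 Cre/Cre; R26 tdTom/tdTom; Nf1 fl/fl. Cre under Prss56 labels a neural crest-derived lineage and its progeny, and Nf1 encodes neurofibromin, a negative regulator of Ras. All 4 groups carried the Cre and the reporter, and because the mutants had 2 Cre alleles and the controls 1, that allele number and the loss of Nf1 cannot be told apart. Each genotype and age is 1 library, and the number of mice behind it was not given in the sources used here.

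Aggrecan is the large chondroitin sulfate proteoglycan that gives cartilage its charge and water, and its molecules bind along hyaluronan chains through a bond that link protein stabilises. Versican is a hyaluronan-binding relative found in looser and more fibrous matrices. The small leucine-rich proteoglycans sit on collagen fibrils: biglycan and decorin carry chondroitin or dermatan sulfate, fibromodulin, lumican and PRELP belong to the keratan sulfate-type class, and epiphycan was named from epiphyseal cartilage. The cartilage endplate is the thin hyaline layer between the vertebral body and the intervertebral disc.

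Several of the 9 genes lie near each other in the genome (GRCm38, GENCODE vM21). Hapln1 (chr13:89539796-89611652, plus strand) and Vcan (chr13:89655312-89742509, minus strand) are 43.7 kb apart. Dcn (chr10:97479609-97518143), Lum (chr10:97565128-97572703) and Epyc (chr10:97644068-97682454) lie in this order on the plus strand of chromosome 10, with gaps of 47.0 kb and 71.4 kb. Kera (chr10:97606879-97613692), which is not among the 9, lies between Lum and Epyc. Prelp (chr1:133910304-133921414, minus strand) and Fmod (chr1:134037254-134048277, plus strand) are 116 kb apart. Acan (chr7:79053483-79115099) and Bgn (chrX:73483602-73495933) each lie apart from the other 8.

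Upstream windows of 250 bases, from RefSeq (GRCm38.p6), were found for 7 of the 9 genes (8 windows), and not for Dcn and Lum. The windows of Vcan and Epyc are printed because Vcan had the most unequal levels between the 2 cartilage gates and Epyc was the member called higher in the endplate. Capitals mark matches, on either strand, to the letters ACAAAG or ACAATG, which SOX factors such as SOX9 can bind, or to TGTGGT or TGCGGT, which RUNX factors such as RUNX2 can bind; the 2 sets do not overlap. The first Epyc window (chr10:97643818-97644067, plus strand) precedes the first base of the gene, the second (chr10:97646853-97647102, plus strand) precedes a start inside the gene, and the Vcan window is chr13:89742513-89742762, read on the minus strand.
Epyc, first start: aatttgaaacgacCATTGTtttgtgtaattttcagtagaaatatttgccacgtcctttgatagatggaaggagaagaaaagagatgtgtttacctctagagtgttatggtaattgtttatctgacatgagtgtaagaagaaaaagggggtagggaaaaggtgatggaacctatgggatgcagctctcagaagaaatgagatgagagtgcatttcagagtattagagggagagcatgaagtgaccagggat
Epyc, second start: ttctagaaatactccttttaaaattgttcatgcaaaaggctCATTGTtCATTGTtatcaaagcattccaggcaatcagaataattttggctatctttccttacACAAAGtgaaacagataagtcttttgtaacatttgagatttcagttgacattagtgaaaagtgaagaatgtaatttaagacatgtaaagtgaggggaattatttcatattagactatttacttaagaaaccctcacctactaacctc
Vcan: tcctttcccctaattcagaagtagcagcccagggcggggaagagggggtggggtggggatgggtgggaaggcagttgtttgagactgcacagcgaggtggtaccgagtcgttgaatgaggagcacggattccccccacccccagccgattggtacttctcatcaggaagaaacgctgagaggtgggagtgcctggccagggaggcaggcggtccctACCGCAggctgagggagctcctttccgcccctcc
The Epyc windows held 1 and 3 SOX-type matches and no RUNX-type match, and the Vcan window held 1 RUNX-type match and no SOX-type match. Of all 32851 RefSeq windows of this length, 25.2% held the SOX-type letters and 18.6% the RUNX-type letters. Among the members, Epyc was the only gene with SOX-type letters in its windows, and Hapln1, Vcan and Fmod had 1 RUNX-type match each. The TATA letters TATAAA were in none of the 8 windows and in 12.4% of all windows. These are matches of letters and not mapped binding sites.

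The libraries held 922, 542, 163 and 545 cell barcodes in the order control 3 months, mutant 3 months, control 12-16 months and mutant 12-16 months, and no barcode was shared between libraries. Of these, 717, 484, 135 and 421 cells had over 750 unique molecular identifiers (UMIs, each counting 1 captured transcript), over 500 genes and under 7% mitochondrial UMIs, with median depths of 8189 to 12644 UMIs. The cells were divided by 3 gates. The endplate gate required a Sox9 UMI and at least 3 UMIs of Zfp804b and Dab1 together, genes that mark endplate cartilage in these data, and held 30, 142, 12 and 38 cells. The other cartilage gate required Sox9 and fewer than 3 such UMIs (544, 242, 84 and 238 cells), and the bone/stroma gate required a Runx2 UMI without Sox9 (40, 39, 25 and 75 cells). The 7 cartilage marker genes include Sox9, which both Sox9 gates require, so its presence there was fixed in advance. All 7 were present in both Sox9 gates in every library, at a summed 15200 to 22671 CPM (UMIs of a gene per 1000000 UMIs of the summed cells) in the endplate gate. The immune, endothelial and smooth muscle lists each reached at most 11.1 CPM there and in other cartilage. Osteoblast lineage markers summed to 1658 to 3659 CPM in the endplate gate, 810 to 1864 CPM in other cartilage and 8075 to 140794 CPM in bone/stroma. Runx2, which the bone/stroma gate requires, is among them. Marrow stroma markers reached 1007 CPM in other cartilage. The 5 endplate markers, Zfp804b and Dab1 among them, summed to 430 to 3434 CPM in the endplate gate. In other cartilage they summed to 65.8 to 1131 CPM, so these ranges overlapped. Nf1 itself stood at 131, 150, 147 and 125 CPM, so its transcripts were higher in the mutant library at 3 months and lower in it at 12-16 months. Counting of transcript 3′ ends does not read the deleted part, and the genotypes rest on the labels.

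The bone/stroma gate differed between libraries in what it held. In the 3-month mutant library, 24 of its 39 cells had a UMI of Ptprc (CD45) or Cdh5 or at least 3 of Acta2, against 3 of 40, 2 of 25 and 10 of 75 cells in the control 3-month, control 12-16-month and mutant 12-16-month libraries. The 6 immune markers summed to 1765 CPM there, with a UMI of each, against 8.4 to 319 CPM in the other libraries, and the summed smooth muscle and mural markers ranged from 13.2 to 988 CPM. Most ratios that use the 3-month mutant library in this gate are given with and without those cells. Most other comparisons that use the gate are given with all its cells only. In each bulk sum, fewer cells that use a gene and less of its RNA per cell cannot be told apart.

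The endplate cells combined high Acan and Hapln1 with Epyc and with almost no Vcan, other cartilage added Vcan and Dcn, and bone/stroma kept Bgn, Dcn and Lum. Of the UMIs that the 9 genes had together in the endplate gate, Acan accounted for 37.0% to 41.5%, against 15.0% to 29.3% in other cartilage and 0.899% to 4.99% in bone/stroma. Dcn accounted for 0.525% to 4.97% in the endplate gate and for 28.9% to 58.7% in other cartilage. Each share also depends on the counts of the other genes in the gate, so a larger Acan share is not a higher Acan level. Between the endplate gate and other cartilage Acan itself had a log2 fold change of -0.19 (edgeR adjusted p = 0.86). Counts of 3′ ends of different genes were not put on a common scale. In all passing cells together, the 9 genes had 71662 (Acan), 42770 (Hapln1), 36327 (Vcan), 20240 (Bgn), 114400 (Dcn), 6362 (Fmod), 22748 (Prelp), 3264 (Lum) and 1134 (Epyc) UMIs.

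**Figure D1:**
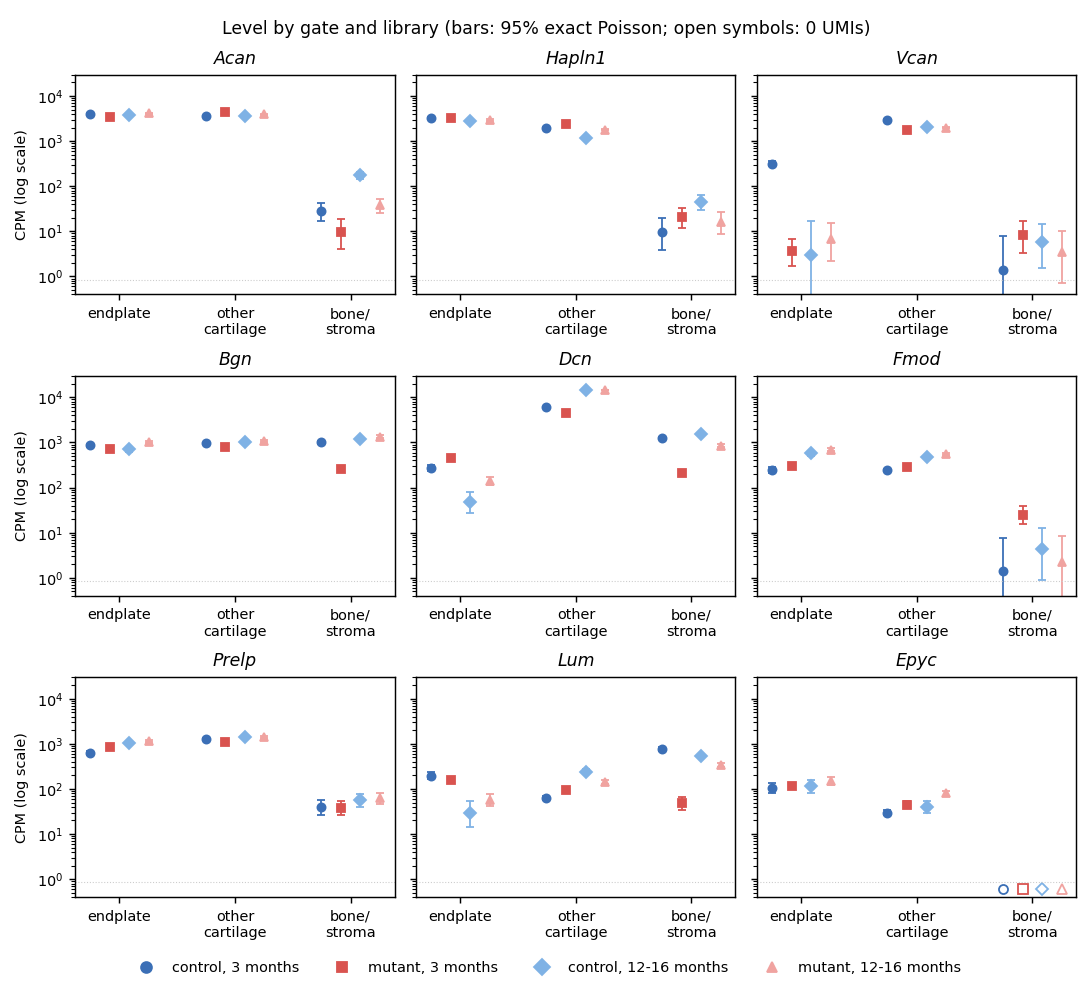
Level of each of the 9 genes (CPM, log axis) in the 3 gates and 4 libraries. Points are 1 library each, bars are exact 95% Poisson intervals that cover counting error only, and open symbols below the dotted line mark a gene with 0 UMIs. Epyc has open symbols in all 4 bone/stroma sums, and Vcan in the endplate gate lies at 3.00 to 6.69 CPM in 3 libraries and at 318 CPM in the 3-month control.

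The endplate gate was compared with other cartilage to ask how the matrix genes of endplate chondrocytes differ from those of neighbouring cartilage cells. UMIs were summed per library and gate and tested with edgeR's quasi-likelihood test, with library as a covariate and Benjamini-Hochberg adjustment over 9558 genes. Of the 9 genes, 1 was called higher in the endplate gate (Epyc) and 3 were called lower (Vcan, Dcn and Prelp), where 7.95% and 9.72% of all genes tested were called higher and lower. The median log2 fold change was -0.32 over the 9 genes and -0.01 over all genes.

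Vcan was the most unequal of the 9. In other cartilage it stood at 3015, 1759, 2032 and 1984 CPM (control 3 months, mutant 3 months, control 12-16 months, mutant 12-16 months), and in the endplate gate at 318, 3.59, 3.00 and 6.69 CPM. Every endplate value lay below every other cartilage value, and the log2 fold change was -6.65 ± 1.17 (SE, n = 4 libraries, edgeR adjusted p = 0.0041). The one endplate value above 7 CPM rested on few cells: of 197 Vcan UMIs in the 3-month control, 4 of 30 cells held 103, 71, 22 and 1, and without the first 3 of these cells the level was 1.83 CPM. In the 3-month mutant the 10 Vcan UMIs were spread over 9 of 142 endplate cells, none with more than 2.

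Dcn had the same direction. It stood at 274, 459, 48.1 and 140 CPM in the endplate gate and at 6099, 4465, 14372 and 14422 CPM in other cartilage, a log2 fold change of -5.35 ± 0.96 (edgeR adjusted p = 0.0045). The endplate gate thus held 0.00334 to 0.103 times the other cartilage level within a library. Endplate Dcn was also uneven between cells, with the 3 highest cells holding 22.8% of its UMIs in the 3-month mutant and 81.2% and 83.8% in the older control and mutant.

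Epyc, by contrast, was higher in the endplate gate in all 4 libraries. It stood at 106 (95% interval 82.3 to 135), 114 (102 to 127), 114 (80.8 to 157) and 150 (123 to 180) CPM there and at 29.7, 45.1, 40.6 and 79.3 CPM in other cartilage, so the groups did not overlap. The log2 fold change was 1.25 ± 0.21 (edgeR adjusted p = 0.0084). The call was lost without the 3-month control library (log2 fold change 1.10, edgeR adjusted p = 0.051) and when the gate was scaled to the depth of each cell (0.95, adjusted p = 0.079). The scaled gate left 7 endplate cells in the older control, under the minimum of 10, so that sum also dropped out.

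Prelp, whose product binds collagen and heparan sulfate, was 642, 849, 1036 and 1149 CPM in the endplate gate and 1289, 1112, 1449 and 1422 CPM in other cartilage. It was lower in the endplate gate of each library, although the 2 ranges overlapped, with a log2 fold change of -0.68 ± 0.19 (edgeR adjusted p = 0.036). This call was lost in 6 of 9 alternatives, among them leaving out the 3-month control (adjusted p = 0.24), the older control (0.12) or the older mutant (0.11).

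Hapln1 was higher in the endplate gate in 4 of 4 libraries without passing the test. It stood at 3288, 3236, 2851 and 2982 CPM there and at 1987, 2389, 1171 and 1782 CPM in other cartilage, without overlap, and the log2 fold change was 0.60 ± 0.39 (edgeR adjusted p = 0.32). Acan, its partner on hyaluronan, stood at 4092, 3416, 3803 and 4142 CPM in the endplate gate and at 3541, 4517, 3669 and 3962 CPM in other cartilage (log2 fold change -0.19, adjusted p = 0.86), and the ranges overlapped. The number of Hapln1 UMIs per Acan UMI was therefore 0.803, 0.947, 0.75 and 0.720 in the endplate gate and 0.561, 0.529, 0.319 and 0.450 in other cartilage, again without overlap. Bgn (701 to 1029 against 776 to 1071 CPM), Fmod (245 to 696 against 250 to 560 CPM) and Lum (30.0 to 197 against 62.3 to 241 CPM) overlapped between these gates and did not pass the test.

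Both cartilage gates were then compared with bone/stroma. Between other cartilage and bone/stroma, 7 of the 9 genes were called higher in other cartilage (16.6% of all genes tested) and 0 were called lower (15.3% of all genes tested). By an unadjusted p under 0.05 edgeR also placed 7 higher and 0 lower, and DESeq2 gave counts of 7 and 0. Between the endplate gate and bone/stroma, 5 were called higher in the endplate gate (14.6% of all genes) and 0 lower (15.0% of all genes), again 0 at an unadjusted p under 0.05 by edgeR. DESeq2 called 1 lower there, Dcn, and placed 2 lower at an unadjusted p under 0.05. The median log2 fold changes of the 9 genes were 5.71 and 4.20, against -0.05 and -0.04 over all genes.

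Acan and Hapln1 set cartilage apart from bone/stroma. In bone/stroma Acan was at 28.0, 9.57, 177 and 37.7 CPM, and its log2 fold changes were 6.49 for other cartilage (edgeR adjusted p = 1.6e-04) and 6.30 for the endplate gate (adjusted p = 2.0e-04). The highest bone/stroma value, in the older control, was 124 UMIs, of which 1 cell held 116 and 3 cells held 97.6%. Hapln1 stood at 9.80, 20.3, 44.2 and 16.0 CPM in bone/stroma, with log2 fold changes of 6.48 (edgeR adjusted p = 1.9e-05) and 7.09 (adjusted p = 1.2e-05).

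Fmod and Prelp followed the same pattern. Fmod, which shapes collagen fibrils, had only 1 to 21 UMIs in a bone/stroma sum (1.40, 25.1, 4.27 and 2.28 CPM), and its log2 fold changes were 5.71 and 5.74 (edgeR adjusted p = 1.4e-04 and 1.5e-04). Prelp was at 39.2, 38.3, 55.6 and 61.6 CPM in bone/stroma, with log2 fold changes of 4.88 for other cartilage (adjusted p = 3.6e-06) and 4.20 for the endplate gate (adjusted p = 3.1e-06). Epyc had 0 UMIs in the bone/stroma gate of all 4 libraries, so its floor of 3 counts per library stood at 3.42 to 4.27 CPM. Against that floor Epyc was at least 7.07-, 12.6-, 9.51- and 23.2-fold higher in other cartilage and at least 25.3-, 31.7-, 26.7- and 43.8-fold higher in the endplate gate.

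Vcan separated other cartilage from both remaining gates. In bone/stroma it had 1, 7, 4 and 3 UMIs (1.40, 8.37, 5.70 and 3.42 CPM), a log2 fold change of 9.08 for other cartilage (edgeR adjusted p = 4.8e-04). Against the endplate gate the bone/stroma values did not differ by the test (log2 fold change 2.43, edgeR adjusted p = 0.22), and without the 3-month control library the difference was -0.36.

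Bgn, Dcn and Lum were the 3 genes with substantial levels in bone/stroma. Bgn was measured at 1005, 264, 1168 and 1354 CPM there, a range that overlapped those of both cartilage gates, and neither contrast passed the test (other cartilage log2 fold change 0.22, edgeR adjusted p = 0.69; endplate -0.12, adjusted p = 0.84). Lum stood at 766, 47.8, 543 and 337 CPM in bone/stroma and was not called against other cartilage (-1.40, adjusted p = 0.21) or the endplate gate (-1.72, adjusted p = 0.16). Dcn stood at 1263, 207, 1542 and 852 CPM, below other cartilage (log2 fold change 3.42, edgeR adjusted p = 0.011) and not called against the endplate gate (-1.93, adjusted p = 0.13). The Dcn call against other cartilage was lost without the older mutant library (adjusted p = 0.067).

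The lowest bone/stroma values of Bgn, Dcn and Lum all came from the 3-month mutant library, the one with the immune markers. With the cells carrying Ptprc, Cdh5 or Acta2 left out, the number of members called between the endplate gate and bone/stroma rose from 5 to 8, and Lum (edgeR adjusted p = 0.013), Dcn (0.0091) and Bgn (0.0063) were called lower in the endplate gate. Without the whole 3-month mutant library, Lum (adjusted p = 0.016) and Dcn (adjusted p = 0.0050) were likewise called lower, and 7 members were called in all. The shares of all genes called under these settings are not given here, so these member counts are not read as particular to the members.

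**Figure D2:**
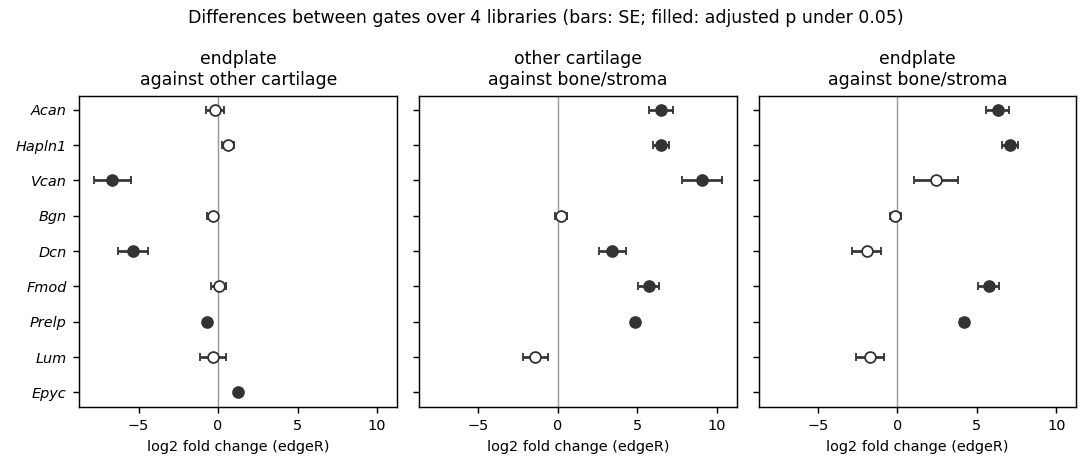
Log2 fold change between gates for each gene, with standard errors worked out from the F statistic of the edgeR fit over 4 libraries. Filled points are called at an adjusted p under 0.05. Epyc against bone/stroma is left out, because it had 0 UMIs there, and the filled points of Vcan and Dcn lie far to the left of 0 for the endplate gate against other cartilage.

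The share of cells with a UMI gave the same order for the genes that differed most. Vcan was detected in 13.3%, 6.34%, 8.33% and 5.26% of endplate cells and in 87.7%, 75.2%, 79.8% and 74.8% of other cartilage cells. Epyc was detected in 36.7%, 47.2%, 50% and 63.2% of endplate cells and in 8.82%, 12.8%, 5.95% and 11.3% of other cartilage cells. Dcn was detected in 43.3%, 52.1%, 50% and 26.3% of endplate cells and in 79.8%, 72.7%, 85.7% and 81.9% of other cartilage cells. Endplate cells were deeper, with medians of 17606 to 26898 UMIs against 7479 to 12426, so every cell was also thinned to 750 UMIs. At that depth the share for Epyc was 6.0%, 6.83%, 8.75% and 9.21% in the endplate gate and 1.61%, 1.80%, 2.86% and 2.98% in other cartilage. Of the 9 genes, 4 (Acan, Hapln1, Fmod and Epyc) had a higher thinned share in the endplate gate than in other cartilage in all 4 libraries, and 3 (Vcan, Dcn and Prelp) had a lower one in all 4; for Acan the margin in the 3-month mutant was small, 86.2% against 86.1%.

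Cells with Ptprc and neither Sox9 nor Runx2, which are not cartilage by these genes, were set beside the gates as a background for shares of cells with a UMI. There were 12, 19, 0 and 23 such cells, at median depths of 1183, 9359 and 5308 UMIs in the 3 libraries that had any. Epyc had a UMI in 0 of these 54 cells, which allows a share of up to 5.56%, and the share with a UMI of any other member was at most 8.70%, with the exception of Vcan in the 3-month mutant library. There 4 of 19 cells (21.1%) held 52 Vcan UMIs, at 296 CPM (interval 221 to 388) against 3.59 CPM in the endplate gate of the same library. In the older mutant, 1 of 23 such cells (4.35%) and 2 of 38 endplate cells (5.26%) had Vcan, and so low an endplate share is not read as expression. The 12 shallow cells of the 3-month control had 0 Vcan UMIs, which allows a share of up to 25%, and the older control had no such cells, so these cells set no common level for Vcan. For Epyc the endplate shares, 36.7% to 63.2%, lay above that limit.

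**Figure D3:**
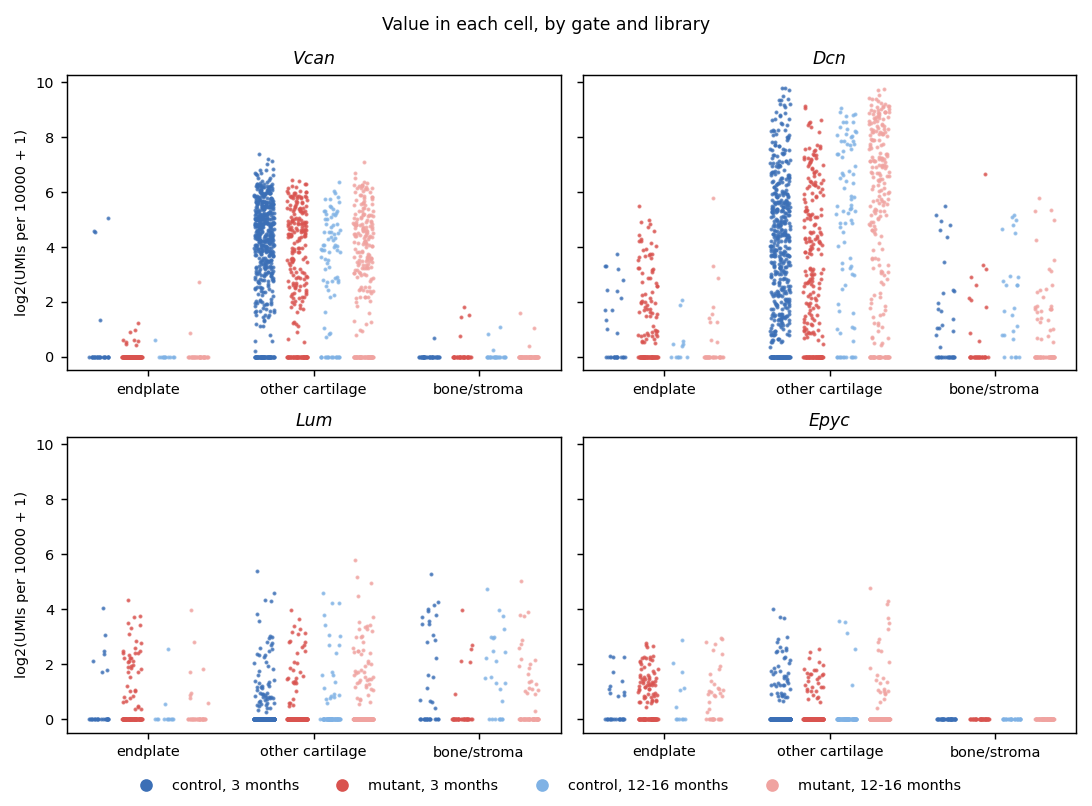
Vcan, Dcn, Lum and Epyc in each cell of the 3 gates and 4 libraries, each point 1 cell, as log2 of UMIs per 10000 plus 1. Vcan is absent from nearly all endplate cells and present in most other cartilage cells, and Epyc is present in 36.7% to 63.2% of endplate cells.

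Within gates, some members tended to be high in the same cells. The Spearman correlation of Acan and Hapln1 across cells was 0.42 to 0.53 in other cartilage over the 4 libraries and 0.26 to 0.50 in the endplate gate. Dcn and Lum correlated at 0.55 to 0.77 in bone/stroma and at 0.33 to 0.68 in the endplate gate, while Dcn and Prelp correlated at -0.59 to -0.18 in the endplate gate and at 0.24 to 0.57 in other cartilage. Bgn and Fmod correlated at 0.38 to 0.78 in the endplate gate, and Fmod and Prelp at 0.36 to 0.53. These values describe 12 to 544 cells of a library that share its depth and free RNA. Lum and Epyc, which lie on chromosome 10 with Kera between them, were found together in 34 of the 43 endplate cells with Lum in the 3-month mutant library. They were found together in 6 of 7 such cells in the 3-month control, in 1 of 2 in the older control and in 4 of 8 in the older mutant. Among all endplate cells of these libraries, in the same order, Epyc was found in 67 of 142, 11 of 30, 6 of 12 and 24 of 38. Epyc had 0 UMIs in bone/stroma, so the cells with Lum there (21, 6, 17 and 23) say nothing about the pair.

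The other cartilage gate itself was mixed. After the data were seen, it was divided by the summed UMIs of Prg4 (lubricin, of the cartilage surface), Smoc2 and Cilp2, at 3. Cells at or above 3 numbered 475, 187, 76 and 199, and cells below it 69, 55, 8 and 39. No test was made on this division.

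Dcn went with the cells high in these 3 genes, and Vcan did so in part. Dcn stood at 6793, 6054, 16241 and 18730 CPM at or above 3 and at 435, 628, 83.7 and 79.1 CPM below, and the groups did not overlap. Vcan stood at 3267, 2359, 2266 and 2522 CPM at or above 3 and at 952, 310, 243 and 193 CPM below. Below 3, 37 cells over all libraries had at least 3 UMIs of Sfrp5 and Adamtsl2 but under 3 of Chrdl2 and Meox2. Together these cells stood at 2697 CPM for Vcan, with 763 of the 1217 Vcan UMIs below 3, and at 410 CPM for Dcn. Prelp was also higher at or above 3, at 1294 to 1699 CPM against 500 to 1004 CPM. Epyc was at 16.1, 0.905, 21.9 and 71.3 CPM at or above 3 and at 141, 152, 184 and 106 CPM below, against 106 to 150 CPM in the endplate gate. Hapln1 was at 993 to 1912 CPM at or above 3 and at 2527 to 3542 CPM below. For Dcn and Hapln1 the cells below 3 therefore lay nearer in each library to the endplate gate than to the rest of their own gate, although they had fewer than 3 UMIs of Zfp804b and Dab1.

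**Figure D4:**
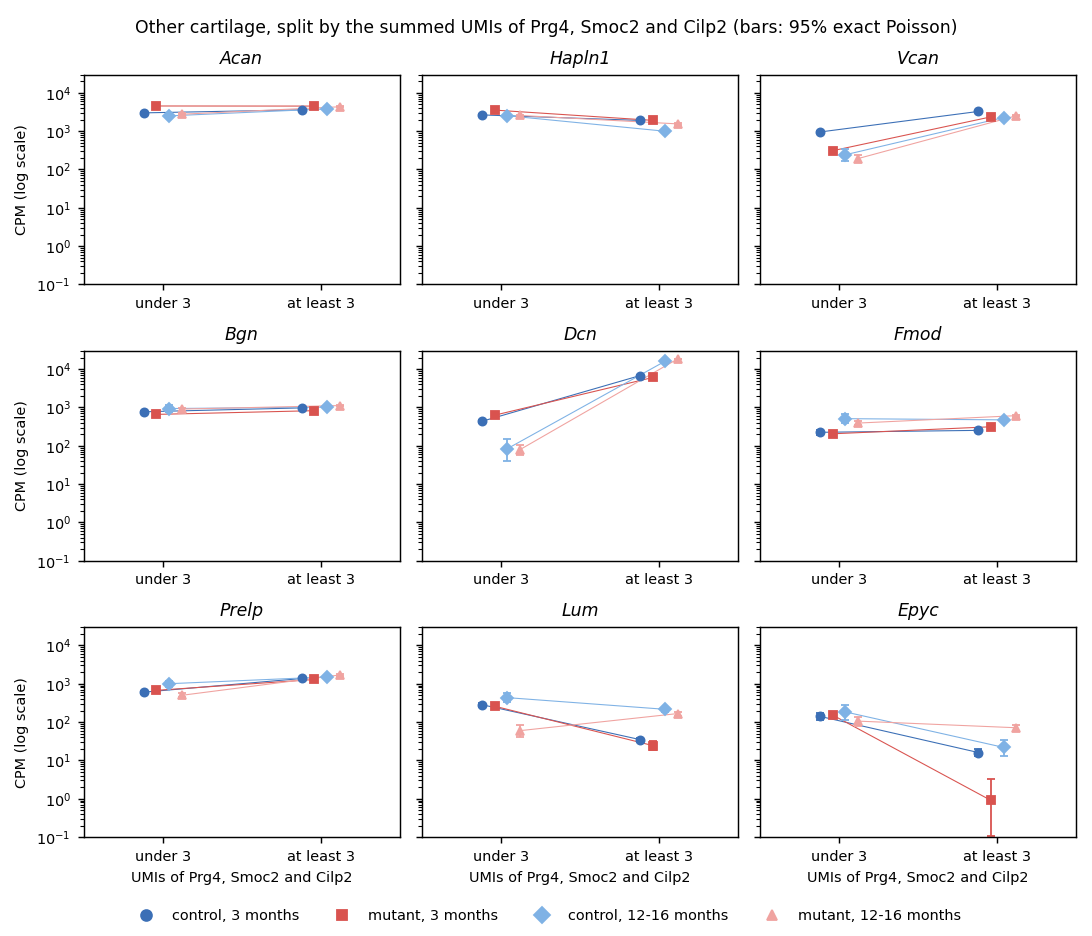
Level of the members (CPM, log axis) in other cartilage cells with under 3 and with at least 3 summed UMIs of Prg4, Smoc2 and Cilp2, by library. The division was chosen after the data were seen; Dcn and Vcan are higher in all 4 libraries where the sum is at least 3, and Epyc is lower in all 4.

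Cells on either side of the gate's threshold were few. The endplate gate held 5, 6, 2 and 5 cells with exactly 3 UMIs of Zfp804b and Dab1, in which Vcan had 0 UMIs in each library. Other cartilage held 2, 3, 0 and 7 cells with exactly 2. Over all libraries these cells stood at 13.8 CPM for Vcan, 138 CPM for Dcn, 3526 CPM for Hapln1 and 115 CPM for Epyc. For these genes they lay nearer to the endplate gate than to their own gate. Prelp, at 1152 CPM, lay within the range of other cartilage.

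Bone/stroma was also uneven. In cells with Sp7, a transcription factor of osteoblast precursors, and under 3 UMIs of Cxcl12 (8, 1, 12 and 12 cells), Dcn stood at 2705, 517, 2354 and 2697 CPM and Lum at 1212, 86.1, 792 and 946 CPM. In cells with at least 3 UMIs of Cxcl12, a chemokine of marrow stroma (23, 12, 11 and 46 cells), Dcn stood at 592, 402, 246 and 123 CPM and Lum at 595, 192, 164 and 119 CPM. Bgn had similar values in both, 1161 to 1895 and 855 to 1617 CPM. The lone 3-month mutant cell in the first subset makes its values there 12 (Dcn) and 2 (Lum) UMIs. Dcn and Lum were thus lower in the Cxcl12 cells in the 3 libraries with at least 8 cells in each subset, without a test.

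A further 26 genes of the same families and of hyaluronan synthesis and binding gave the context. Of these, 14 passed the filter on low counts, and 12, among them Ncan, Bcan, Kera and the remaining link protein genes, did not. Between the endplate gate and other cartilage 1 was called higher, Chadl (315 to 508 against 87.1 to 149 CPM, log2 fold change 1.53, edgeR adjusted p = 0.0013), 6 were called lower and 7 were not called. The lower ones were led by Prg4 (log2 fold change -8.70, edgeR adjusted p = 4.3e-04), Aspn (-6.32, adjusted p = 0.0012), a leucine-rich relative of Dcn and Bgn, and Tnfaip6 (-4.44, adjusted p = 3.8e-04), a hyaluronan-binding protein. Prg4 was a gene of the division above, and it was not used by the gates.

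Between other cartilage and bone/stroma, 9 of the 14 were called higher in other cartilage, among them Prg4 (log2 fold change 10.35, edgeR adjusted p = 6.1e-05), Chad (6.47, adjusted p = 2.7e-05) and Chadl (4.37, adjusted p = 5.8e-06), and 2 lower, Podnl1 (-3.90) and the hyaluronan receptor gene Cd44 (-2.06). In the endplate gate 6 were called higher than in bone/stroma, led by Chad (5.99), Chadl (5.91) and the hyaluronan synthase gene Has2 (3.94, edgeR adjusted p = 0.0028), and 3 lower than in bone/stroma, Cd44 (-4.96), Podnl1 (-4.73) and Ogn (-1.33, adjusted p = 0.028). Cd44 was lower in both cartilage gates than in bone/stroma, at 1.80 to 6.01 CPM in the endplate gate, 18.6 to 21.3 CPM in other cartilage and 67.0 to 132 CPM in bone/stroma.

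Over the 12 sums (3 gates by 4 libraries), the log levels of Acan and Hapln1 had a Pearson r of 0.976, Hapln1 and Epyc 0.966, Fmod and Prelp 0.956 and Vcan and Dcn 0.753. Lum was negatively related to Fmod (-0.655) and Hapln1 (-0.541). Sums of a library share its cells' handling, and these values describe the gates more than independent samples. Among 9916 genes, the 3 with patterns closest to Acan were Tgfa (r = 0.987), Pcolce2 and Kif21a, those closest to Hapln1 were Prkcz (0.992), Scrg1 and Cnmd (chondromodulin), and those closest to Epyc were Fxyd2 (0.992), Serpina1d and Kcna6. Vcan was followed most closely by Sbsn (0.989), Slurp1 and Chrdl2, and Dcn by Clu (0.952), Ackr3 and Ndrg4. Fmod was nearest to Ly6c1 (0.981), Hip1r and Chad (chondroadherin), and Prelp to Meltf (0.992), Nt5e and Slc6a12. The closest to Bgn were Maged1 (0.967), Vasn and Sar1a, and the closest to Lum were Mef2a (0.921), Pde1a and Metrnl.

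The mutant and control libraries were compared at each age to ask whether loss of Nf1 goes with changes in these genes. With 1 library per genotype and age there is no replicate check, no p was computed, and the 95% intervals of the ratios cover counting error only. A ratio was read where both libraries together had at least 20 UMIs, and past 2-fold was set as the threshold of size. At 3 months, in all passing cells, Vcan was 782 CPM in the mutant and 2525 CPM in the control (ratio 0.310), Dcn 2146 and 5145 CPM (0.417) and Epyc 62.8 and 31.4 CPM (2.00), and these 3 of 9 members were past 2-fold (19.7% of all genes). The gates made different shares of these libraries, with the endplate gate at 29.3% of mutant and 4.18% of control cells.

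The same comparison was made within each gate. In the endplate gate, 1 of 9 members was past 2-fold (16.0% of all genes), Vcan, at 0.0113 times the control (interval 0.00534 to 0.0212), which rests on the 3 control cells described above. Dcn was at 1.67 (1.43 to 1.98), Prelp at 1.32 (1.19 to 1.47) and Acan at 0.835 (0.799 to 0.873) times the control there, and Epyc at 1.07 (0.819 to 1.42). In other cartilage, 0 of 9 members were past 2-fold (9.28% of all genes). Vcan was at 0.584 (0.567 to 0.601) and Dcn at 0.732 times the control, and Acan at 1.28, Lum at 1.5 (1.29 to 1.74) and Epyc at 1.52 (1.22 to 1.88). By the division of this gate above, Dcn and Epyc were each below the control in the cells with at least 3 UMIs of Prg4, Smoc2 and Cilp2. In the cells under 3, each was above the control. The ratios of the whole gate thus do not describe its subsets, and what their mix contributes was not tested.

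In bone/stroma the 3-month ratios depended on which cells were counted. There 6 of 7 members were past 2-fold (37.2% of all genes), 2 higher and 4 lower. The higher ones were Fmod at 17.9 (2.89 to 742), from 21 UMIs in 2 mutant cells and 1 in the control, and Hapln1 at 2.07 (0.818 to 5.92). Of the lower ones, Bgn was at 0.263 (0.225 to 0.306), Dcn at 0.164 (0.138 to 0.193) and Lum at 0.0625 (0.0441 to 0.0862) times the control. Leaving out cells with Ptprc, Cdh5 or Acta2 left 15 mutant and 37 control cells and gave ratios of 1.41 (1.21 to 1.65) for Bgn, 0.893 (0.754 to 1.05) for Dcn and 0.343 (0.242 to 0.473) for Lum. Acan, at 0.342 with all cells, was at 1.87 without them (0.714 to 4.44). The remaining ratios lay further from 1 without them, with Fmod at 98.4 (15.8 to 4068), Hapln1 at 10.7 (4.17 to 30.8) and Prelp at 7.40 (4.03 to 13.9) in place of 0.976. These 3 ratios rest on few cells. Of the mutant UMIs in this gate with all cells counted, 1 cell held 19 of 21 for Fmod, 1 held 14 of 17 for Hapln1 and 1 held 15 of 32 for Prelp.

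At 12-16 months, in all passing cells, 0 of the 9 genes were past 2-fold (10.5% of all genes). In the endplate gate 1 of 8 was (13.4% of all genes), Dcn at 2.92 (1.72 to 5.30) times the control, from 105 and 16 UMIs. Bgn was at 1.46 (1.26 to 1.69) and Acan at 1.09 (1.02 to 1.16). In other cartilage 0 of 9 were past 2-fold (8.72% of all genes), with Hapln1 at 1.52 (1.43 to 1.62), Epyc at 1.95 (1.39 to 2.80), Lum at 0.592 (0.5 to 0.701) and Dcn at 1.00 (0.984 to 1.02). The Epyc ratio rests on few control cells, since 5 of 84 held its 42 UMIs, with 18, 12 and 8 in 3 of them. In bone/stroma 2 of 6 were past 2-fold (16.4% of all genes), Acan at 0.213 and Hapln1 at 0.362. In the older control 1 cell held 116 of 124 Acan UMIs, and 1 cell held 23 of 31 Hapln1 UMIs. Without the 3 highest cells per gene and library, Acan was at 5.42 CPM in the control and 4.70 CPM in the mutant. Hapln1 was then at 3.61 and 1.20 CPM. With all cells Bgn was at 1.16, Dcn at 0.553, Lum at 0.620 and Prelp at 1.11. Without cells carrying Ptprc, Cdh5 or Acta2, Prelp was at 2.07 (1.18 to 3.78), past 2-fold. Hapln1 in other cartilage was above the control at both ages, at 1.20 and 1.52 times. Over all libraries it stood at 2968 CPM in the cells of this gate with under 3 UMIs of Prg4, Smoc2 and Cilp2 and at 1782 CPM in the rest. The former cells made up a larger part of the gate in the mutant than in the control library at each age. At 12-16 months Epyc was above the control in the cells with at least 3 such UMIs and below it in the cells under 3. What this mix contributes to the ratios was not tested.

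One cell weighed on the older control library. It held 71954 UMIs against a median of 9549 in its gate, was not called a doublet, and carried 395 of 495 Fmod UMIs (79.8%), 128 of 249 Lum UMIs (51.4%), 241 of 1046 Bgn UMIs (23.0%) and 2684 of 14854 Dcn UMIs (18.1%) of other cartilage. Without it, Fmod was at 104, Lum at 126, Bgn at 837 and Dcn at 12657 CPM, in place of 479, 241, 1012 and 14372 CPM. With the deepest cell of each library and gate left out, the older mutant-to-control ratio in other cartilage was 5.31 for Fmod, in place of 1.17, and 1.15 for Lum, so that the count of 0 members past 2-fold in that gate does not hold without these cells. This alternative was added after the data were seen.

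**Figure D5:**
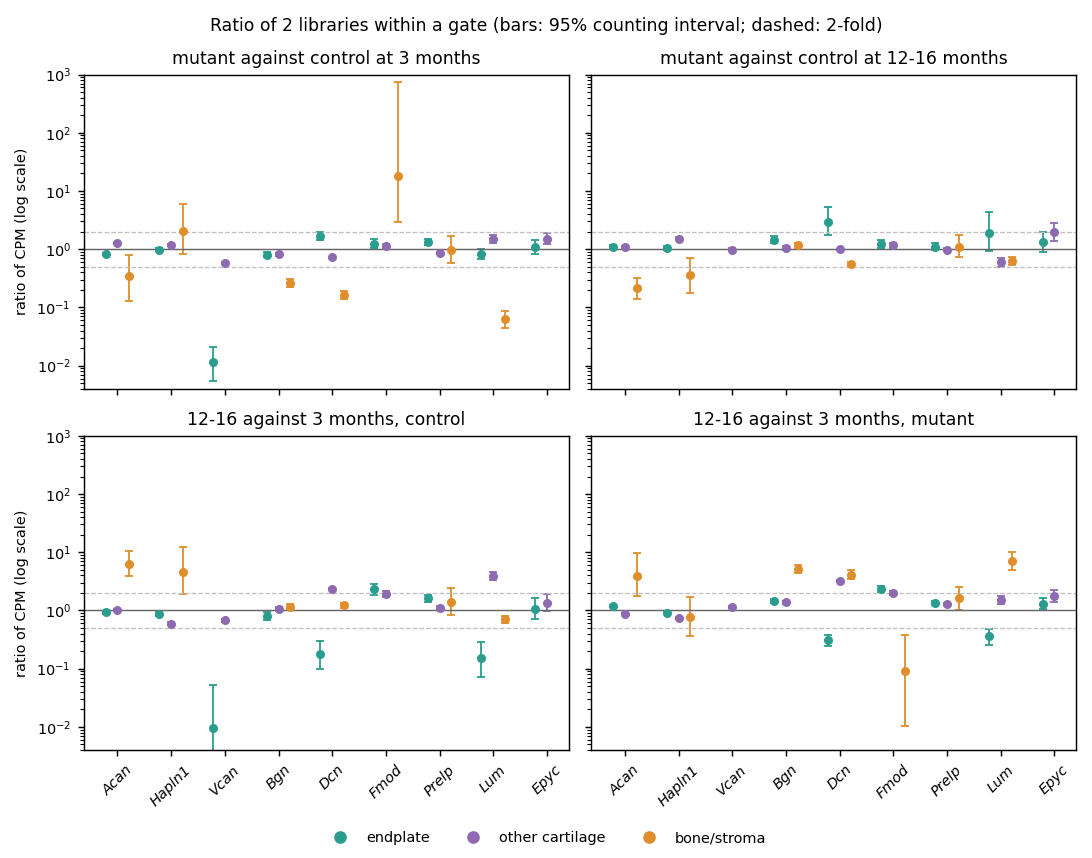
Ratio of mutant to control at each age, and of 12-16 to 3 months in each genotype, for each gene and gate (log axis, dashed lines at 2-fold) with 95% conditional binomial intervals that cover counting error only. Only ratios with at least 20 UMIs over both libraries are drawn; at 3 months the mutant-to-control ratio is 0.0113 for Vcan in the endplate gate, and 17.9 for Fmod and 0.0625 for Lum in bone/stroma.

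The ages were compared within each genotype. In all passing cells 2 of 9 members were past 2-fold in the control (14.8% of all genes), Vcan at 0.394 and Lum at 2.42, and 1 of 9 in the mutant (12.4% of all genes), Dcn at 3.62. In the control endplate gate, 4 of 9 members were past 2-fold (16.6% of all genes): Fmod at 2.33 (1.87 to 2.90) times its 3-month level, and Vcan, Dcn and Lum below it, at 0.00946, 0.175 (0.0980 to 0.293) and 0.153 (0.0714 to 0.291). The Vcan ratio rests on the 3 cells of the younger library, without which its level was 1.83 CPM against 3.00 CPM in the older one, and the older Lum value is 10 UMIs, 9 of them in 1 cell. In the mutant endplate gate 3 of 8 were (15.9% of all genes): Fmod at 2.32 (2.07 to 2.59), Dcn at 0.306 (0.249 to 0.374) and Lum at 0.357 (0.255 to 0.489). The mutant comparison does not use the control libraries, and Fmod, Dcn and Lum lay on the same side of 1 in both genotypes. Prelp was at 1.61 times its 3-month level in the control endplate gate and at 1.35 in the mutant. The endplate gate was itself mixed, with 21 cells over all libraries with a UMI of Col10a1, a gene of hypertrophic chondrocytes, and 201 without. Dcn, Lum, Fmod and Prelp stood at 969, 219, 160 and 254 CPM in the former and at 268, 128, 407 and 967 CPM in the latter. The older control had no Col10a1 UMI in this gate. What this mix contributes to the age ratios was not tested.

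In other cartilage, 2 of 9 members were past 2-fold with age in the control (11.7% of all genes) and 1 of 9 in the mutant (8.26% of all genes). Dcn was at 2.36 (2.31 to 2.40) times its 3-month level in the control and 3.23 (3.17 to 3.29) in the mutant, in the direction opposite to the endplate gate. Lum was at 3.87 (3.31 to 4.52) and 1.53 (1.30 to 1.79), and Hapln1 at 0.589 (0.555 to 0.625) and 0.746 (0.718 to 0.775). Fmod was at 1.92 and 1.99. Without the deepest cell of each library and gate the control values of Dcn, Lum and Fmod were 2.06, 2.17 and 0.419, and those of the mutant 3.24, 1.74 and 1.95. The share of cells with Dcn was 79.8% and 85.7% in the younger and older control and 72.7% and 81.9% in the mutant.

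In bone/stroma, 2 of 6 members were past 2-fold with age in the control (11.4% of all genes), Acan at 6.31 and Hapln1 at 4.51. In the older control 1 cell held 116 of 124 Acan UMIs, and 1 cell held 23 of 31 Hapln1 UMIs. Lum was at 0.709 and Dcn at 1.22. In the mutant 5 of 7 members were past 2-fold with age (34.3% of all genes). Lum was at 7.04, Bgn at 5.12, Dcn at 4.12 and Acan at 3.94 times the 3-month level, and Fmod below it at 0.0909 (0.0103 to 0.372). Without cells carrying Ptprc, Cdh5 or Acta2 the ratios of Lum, Bgn, Dcn and Acan were 1.41, 1.05, 0.831 and 0.717, while those of Fmod and Hapln1 were 0.0182 and 0.155 and the interval for Prelp ran from 0.186 to 0.491. The 3-month mutant values of Fmod, Hapln1 and Prelp rest on the few cells described above.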

How the data were processed

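Per the labels and file headers, the authors deposited 1 filtered matrix of UMI counts per library, made with Cell Ranger 8.0.0 on mm10 with a tdTomato row added; these counts are not normalized. The study's own removal of free RNA with SoupX was not repeated. The 9 genes, gates and lists were chosen with earlier results of these data known. Cells with over 750 UMIs, over 500 genes and under 7% mitochondrial UMIs were kept. CPM were computed from summed UMIs, with exact Poisson 95% intervals; ratios of 2 libraries have conditional binomial intervals, and shares of cells exact Clopper-Pearson ones, all for counting error only. Gates were compared with the quasi-likelihood test of edgeR 4.0.16 (R 4.3.3) on sums of at least 10 cells, with library as covariate, a filter on low counts and an adjusted p of 0.05. The SE of a log2 fold change is its absolute value divided by the square root of the F statistic of this test. With no statement that libraries came from separate cultures or pools, those p-values measure the spread between these 4 libraries. The scripts were tested on simulated counts.

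Named were all 9 genes; of the 26 context genes, the 3 with the largest log2 fold changes called in each direction; and per member the 3 genes of highest Pearson r of log2(CPM + 5) among genes with at least 200 UMIs. Thinned shares are means of 20 draws. Doublets were called with Scrublet (scanpy 1.11.5, expected rate 6%), marking 1, 3, 7 and 5 cells, and were removed only as an alternative. Other alternatives were DESeq2 1.42.0, no filter on low counts, TMM scaling, per-cell means, a depth-scaled gate (3 UMIs per 10000), equal weight for each gate, 50 UMIs in place of 20, removal of cells with Ptprc, Cdh5 or at least 3 Acta2 UMIs, and each library left out. Other software was Python 3.11.15, numpy 2.4.6, scipy 1.17.1, pandas 2.3.3 and matplotlib 3.10.9. The deposited barcodes, gene names and UMI counts were the only expression data used. Gene positions came from GENCODE vM21 and upstream windows from RefSeq, and the genotypes, ages and sorting are as given by the labels and the study.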

Additional observations from a re-analysis of the deposited data

Results flagged for a closer look

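Each of the pairs below was singled out because the ratio of 2 libraries lay on opposite sides of 1 in the 2 settings, with 95% counting intervals that exclude 1 in both; the difference between the settings was not tested, since each group is 1 library. In the endplate gate the mutant-to-control ratio of Acan was 0.835 at 3 months and 1.09 at 12-16 months, and its 12-16-to-3-month ratio was 0.929 in controls and 1.21 in mutants. Bgn in the same gate had mutant-to-control ratios of 0.809 and 1.46, and age ratios of 0.815 in controls and 1.47 in mutants.

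In other cartilage the age ratio was 1.04 in controls and 0.877 in mutants for Acan and 0.674 and 1.13 for Vcan. The control interval for Acan was 1.001 to 1.07. Without cells carrying Ptprc, Cdh5 or Acta2 that control ratio was 1.001 (0.966 to 1.037), and without the deepest cell of each library and gate it was 1.09. Lum in other cartilage had mutant-to-control ratios of 1.5 at 3 months and 0.592 at 12-16 months; 1 cell held 51.4% of the Lum UMIs of the older control, and without the deepest cell of each library and gate the ratios were 1.43 and 1.15. In bone/stroma the mutant-to-control ratio of Bgn was 0.263 at 3 months and 1.16 at 12-16 months, and the age ratio of Lum was 0.709 in controls and 7.04 in mutants. Both use the 3-month mutant library, where 24 of 39 bone/stroma cells had Ptprc, Cdh5 or Acta2, and without such cells the Bgn ratio at 3 months was 1.41 and the mutant Lum ratio was 1.41.

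Cells with Ptprc and neither Sox9 nor Runx2 entered no gate. In the 3-month mutant library 4 of 19 such cells held 52 Vcan UMIs, at a median depth of 9359 UMIs per cell. The 12 cells of this kind in the 3-month control held 0, at a median depth of 1183 UMIs. With depths so unlike, these counts do not compare the genotypes.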

How the results depend on the processing

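Between the endplate gate and other cartilage, 2 members were called with the depth-scaled gate in place of 4, and 2 to 4 with a library left out (2 without the 3-month control). The genes called higher there went from 760 to 295 with the scaled gate and to 276 to 798 with a library left out, those called lower from 929 to 501 with the scaled gate, 1408 without the filter and 472 to 1015 with a library left out. The scaled gate also dropped the endplate sum of the older control, which then had 7 cells, so its counts do not show depth scaling alone. Between other cartilage and bone/stroma, 2254 genes were called lower without the filter in place of 1461, and 877 to 1467 with a library left out. Between the endplate gate and bone/stroma, 8 members were called in place of 5 both without the filter and without the cells carrying Ptprc, Cdh5 or Acta2, and 2333 genes were called lower without the filter in place of 1431, 937 to 1393 with a library left out. These member counts are not read as particular to the members. Members past 2-fold at 3 months went from 7 to 4 over the gates with per-cell means or a minimum of 50 UMIs, and from 3 to 1 in all passing cells with equal weight for each gate. At 12-16 months they went from 3 to 5 with TMM scaling or per-cell means, and with age in the mutant from 1 to 2 in all passing cells with equal gate weights. The causes were not tested.

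Among log2 fold changes, none of which passed the test in the reported fit, several turned sign. For the endplate gate against other cartilage, Acan was 0.026 with the scaled gate. Fmod there was -0.18 with the scaled gate, -0.039 without the filter, -0.010 without the other cell types and -0.0083 without doublets, and -0.057 (without the older mutant) to 0.11 with a library left out. Lum there was -0.92 to 0.24 with a library left out, and positive without either older library. Bgn between other cartilage and bone/stroma was -0.37 without the other cell types and -0.13 (without the 3-month mutant) to 0.47 with a library left out. For the endplate gate against bone/stroma Bgn was 0.080 with the scaled gate and -0.53 to 0.21 (without the older control) with a library left out, and Vcan was -0.36 (without the 3-month control) to 4.02.

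Among ratios, per-cell means gave 0.854 for Hapln1 in bone/stroma at 3 months and 0.974 for Dcn in bone/stroma with age in the mutant. Without the other cell types, bone/stroma gave 1.87 (Acan) and 1.41 (Bgn) at 3 months, and 0.717 (Acan) and 0.831 (Dcn) with age in the mutant. Equal gate weights gave 0.794 for Lum with age in the control in all passing cells. The adjusted p of Vcan between the endplate gate and other cartilage ranged from 1.4e-12 to 0.045 over 9 alternatives, that of Dcn from 1.1e-11 to 0.044, that of Epyc from 1.5e-04 to 0.079 and that of Prelp from 0.0026 to 0.24. Gates were compared within libraries through the library covariate. For genotype and age, no paired analysis was possible because each has 1 library a side, and no library could be left out. The endplate values of the older control are limited by its 12 cells.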
